A study of Mus musculus with 6 samples.

Results

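The genes described here are 10 non-collagen genes of cartilage matrix and cartilage formation, which are *Acan*, *Matn1*, *Matn3*, *Matn4*, *Hapln1*, *Sox9*, *Sox5*, *Sox6*, *Chad* and *Cnmd*. They were chosen by name, with earlier results of these data known, and looked up by NCBI Gene identifier. All 10 were present among the 18099 genes of the table. Their RNA was measured by RNA sequencing in repair tissue of the transected Achilles tendon, taken from neonatal mice 7 days after injury. The comparison asks how these genes differed when AMPKα1, a catalytic subunit of the energy-sensing kinase AMPK, was deleted with a myeloid Cre. The control group held 3 littermates with floxed *Ampkα1* alleles and no Cre, and the LysM-Cre; Ampkα1fl/fl group (LysM-Cre group below) held 3 mice with the same floxed alleles and a Cre driven by the lysozyme M locus. All 6 mice had the tendon of each leg cut, and each library is 1 mouse. LysM-Cre is active in macrophages and other myeloid cells, but the libraries were made from undissociated tissue, so the values below describe all its cells together. In such bulk samples, fewer cells of a type and less RNA per cell cannot be told apart.

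Cartilage resists compression because aggrecan, a large proteoglycan that carries chondroitin sulfate chains, binds to hyaluronan and holds water within a mesh of type II, IX and XI collagen. Link protein stabilizes that bond, and matrilins and chondroadherin are adaptor proteins that connect collagen, proteoglycans and cells. SOX9 is the transcription factor that commits cells to the cartilage lineage, and SOX5 and SOX6 act with it on many matrix genes. In tendon, aggrecan and other cartilage proteins are normally found where the tendon is compressed and at its insertion into bone, and cartilage-like tissue can form in healing Achilles tendon.

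Total reads per library were 18170082 to 18858366 in the control group and 18076805 to 19479880 in the LysM-Cre group, so that 3 reads corresponded to 0.156 to 0.164 CPM (counts scaled to a common library size). *Lyz2*, the locus that carries the Cre, had 7372 to 7778 reads in the controls and 8 to 15 reads in the LysM-Cre mice, which matched the labels. The Cre, the near absence of *Lyz2* RNA and the *Ampkα1* deletion came in the same mice, so their effects cannot be told apart. *Prkaa1*, which encodes AMPKα1, had 740, 688 and 690 reads in control 1, 2 and 3 and 626, 751 and 652 reads in LysM-Cre 1, 2 and 3, with a log2 fold change of -0.08 (standard error, SE, 0.09; edgeR adjusted p = 0.744). Whole-gene counts do not separate a deleted exon from the rest of the gene, and cells outside the myeloid lineage were not targets of the Cre. Tendon markers were present in every library, with a summed level of 7475 to 8271 CPM in the controls and 7571 to 8883 CPM in the LysM-Cre mice over 7 genes. Of the cartilage genes, control 2 stood apart from the other 5 libraries, and results that rest on it are given with and without it.

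Windows of 250 bases before annotated starts are shown for *Acan* and *Matn4*, the 2 genes that passed the test, and for *Cnmd*, which was high in 1 library. They are from RefSeq on GRCm38.p6, which had such windows for 9 of the 10 genes, and they are written 5′ to 3′ on the strand of the gene. Capitals mark a GC box, GGGCGG on either strand, the motif read by SP1-family factors. Also searched were the TATA box (TATAAA on the gene's strand) and 8 SOX-type heptamers on either strand, which are AACAAAG and the 7 others that arise when base 1, 2 or 6 is A or T. Of 32851 RefSeq windows of this length, 32.7% held a GC box, 7.59% a TATA box and 21.8% a SOX heptamer.
Acan, chr7:79052976-79053225, plus strand: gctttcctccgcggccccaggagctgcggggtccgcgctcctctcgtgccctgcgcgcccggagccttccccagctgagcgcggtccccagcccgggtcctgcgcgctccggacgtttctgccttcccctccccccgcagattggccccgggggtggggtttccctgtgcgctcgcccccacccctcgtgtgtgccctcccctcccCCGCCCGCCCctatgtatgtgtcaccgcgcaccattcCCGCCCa
Matn4, chr2:164405161-164405410, minus strand: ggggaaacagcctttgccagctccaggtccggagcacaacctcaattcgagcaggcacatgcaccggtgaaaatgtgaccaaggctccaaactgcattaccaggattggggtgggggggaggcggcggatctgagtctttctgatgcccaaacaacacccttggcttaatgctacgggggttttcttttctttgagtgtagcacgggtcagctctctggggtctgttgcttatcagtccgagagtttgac
Matn4, chr2:164404819-164405068, minus strand: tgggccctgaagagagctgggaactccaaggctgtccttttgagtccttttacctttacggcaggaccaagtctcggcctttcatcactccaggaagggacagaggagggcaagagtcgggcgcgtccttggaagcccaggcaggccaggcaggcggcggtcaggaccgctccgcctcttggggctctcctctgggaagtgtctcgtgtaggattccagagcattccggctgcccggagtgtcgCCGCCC
Cnmd, chr14:79662184-79662433, minus strand: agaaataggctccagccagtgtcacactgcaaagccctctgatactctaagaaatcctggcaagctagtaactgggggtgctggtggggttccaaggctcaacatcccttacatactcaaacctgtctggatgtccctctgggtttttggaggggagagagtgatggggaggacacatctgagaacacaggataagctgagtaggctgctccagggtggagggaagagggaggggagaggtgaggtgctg

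The *Acan* window held 3 GC boxes, was 74.4% G and C, and had a ratio of observed to expected CpG of 0.81, against medians of 52.4% and 0.373 over all windows. It ends at the annotated start of the gene, and NM_007424, one of the *Acan* transcripts described below, starts 257 bases further along, at position 79053483 in GENCODE on GRCm38. The first *Matn4* window, before the outermost start, held no match, and the second held 1 GC box. The second window lies within the gene and ends at position 164404819, whereas NM_013592, a *Matn4* transcript described below, starts at 164404614. The *Cnmd* window held no match and no CpG at all, with a ratio of 0.0. It ends at position 79662184, inside the gene limits given below, which reach to 79662194. Among the 9 genes with a window, 15 windows in all, a SOX heptamer was found only in windows of *Sox6*. That gene had more windows than any other, and G and C made up 34.0% to 60.8% of them. These matches describe letters in the window and say nothing about binding in this tissue.

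The levels of the genes covered a wide range, which is given here in TPM, a scale that accounts for transcript length. *Acan* was the highest of the 10 in every library, with a mean of 221 ± 22.9 TPM in the controls and 337 ± 25.0 TPM in the LysM-Cre mice (SD, n = 3 each), which placed it 513th of the 14261 genes tested. *Matn4* was number 2 in every library, at 78.1 ± 6.22 and 169 ± 46.6 TPM, and *Chad* number 3, at 34.6 ± 8.04 and 44.9 ± 4.83 TPM. *Sox9* and *Matn3* followed, with 10.5 to 28.5 and 6.59 to 16.7 TPM over the 6 libraries, and overlapped each other across libraries. *Hapln1* lay between 4.08 and 12.3 TPM, *Sox6* between 1.80 and 4.08 TPM and *Sox5* between 0.83 and 1.81 TPM. *Cnmd* and *Matn1* were at 1.37 to 2.91 and 0 to 0.12 TPM in 5 libraries, and at 41.8 and 4.48 TPM in control 2. Summed over the 10 genes, the level was 390, 408 and 348 TPM in control 1, 2 and 3 and 576, 679 and 542 TPM in LysM-Cre 1, 2 and 3, with no overlap, and *Acan* made up 51.0% to 63.4% of each sum.

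**Figure D1:**
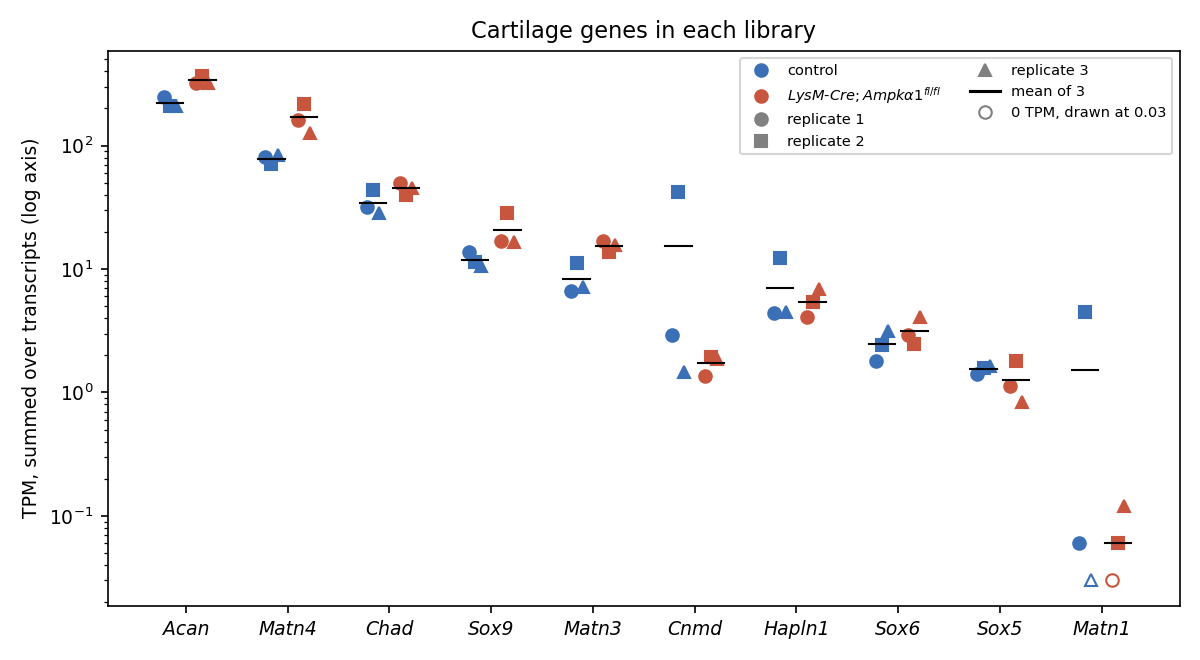
Level of each of the 10 genes in each library, in TPM summed over transcripts on a log axis, with 1 point per mouse (blue, control; red, LysM-Cre; the shape gives the replicate number) and a line at the mean of 3; 0 TPM is drawn as an open point at 0.03. The 3 red points of Acan, Matn4, Sox9 and Matn3 lie above the 3 blue points, and for Cnmd and Matn1 the blue square of control 2 lies far above the other 5 points.

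*Acan* and *Matn4* passed the test, and both were higher in the LysM-Cre mice. *Acan*, which encodes aggrecan (NCBI Gene 11595, chr7:79053226-79115099, GRCm38.p6), was at 896, 789 and 760 CPM in control 1, 2 and 3 and at 1194, 1302 and 1220 CPM in LysM-Cre 1, 2 and 3. All 3 LysM-Cre mice were above all 3 controls, and the gap between the groups was wider than the range within either. The means were 815 ± 71.8 and 1239 ± 56.5 CPM (SD, n = 3), a 1.52-fold difference, with a log2 fold change of 0.60 (SE 0.08, 95% interval 0.42 to 0.79, edgeR adjusted p = 0.0298). *Matn4*, which encodes matrilin-4 (NCBI Gene 17183, chr2:164389393-164405160), was at 83.3, 76.3 and 85.7 CPM in the controls and at 174, 224 and 138 CPM in the LysM-Cre mice. Here, too, the groups did not overlap, and the LysM-Cre mice differed among themselves more than the controls did. The means were 81.8 ± 4.87 and 179 ± 42.9 CPM (SD, n = 3), a 2.18-fold difference, with a log2 fold change of 1.13 (SE 0.17, 95% interval 0.73 to 1.52, edgeR adjusted p = 0.0413).

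These were 2 of the 10 genes, of which 9 were tested, and both were higher. Over the 14261 genes tested, 0.898% were called in either direction and 0.33% were called higher. The set was chosen with earlier results of these data known, so these shares are a description and not a test. No member of the set was called lower, against 0.568% of all genes. In the paired analysis, with the replicate block, the adjusted p was 0.0634 for *Acan* and 0.067 for *Matn4*, and neither was called (0.33% of all genes were). limma on log2(TPM + 0.5) also called none of the 10 (0.484% of all genes). The call of *Acan* was also lost without control 1, 2 or 3 (adjusted p = 0.073, 0.163 and 0.0762) and without LysM-Cre 1 or 3 (0.113 and 0.0849), with log2 fold changes of 0.56 to 0.68. That of *Matn4* was lost without control 1, 2 or 3 (0.194, 0.192 and 0.101) and without LysM-Cre 1 (0.148), with log2 fold changes of 0.93 to 1.28 over all 6 omissions. Without control 2, 0.0556% of all genes were called. A two-sided exact permutation test of either gene alone gave p = 0.1, the smallest that 3 against 3 libraries allow.

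Marker lists of other cell types also moved with the groups, and their part in the *Acan* and *Matn4* values was not tested. Of 7 macrophage markers, 5 were lower in every LysM-Cre mouse than in every control. The other 2, *Cd68* and *Fcgr1*, had log2 fold changes of 0.25 and 0.11, with overlap between the groups. The summed level of all 7 was 909 to 941 CPM in the controls and 573 to 742 CPM in the LysM-Cre mice. All 7 erythroid markers were lower without overlap (sum 1997 to 2973 against 676 to 983 CPM), as were 6 of the 7 bone markers tested. The sum of the 8 bone markers listed was 12.9 to 23.1 against 3.23 to 4.49 CPM. Over all genes tested, 11.4% were lower without overlap. The summed skeletal muscle markers ranged from 202 to 3483 CPM in the controls and from 1138 to 10190 CPM in the LysM-Cre mice, and the Schwann cell markers from 126 to 6404 and from 697 to 2719 CPM. Those of adipocytes ranged from 50.8 to 168 and from 13.3 to 83.0 CPM, and those of endothelial cells from 559 to 600 and from 500 to 566 CPM. *Acan* was highest in LysM-Cre 2 and lowest in control 3. The erythroid sum placed the 6 libraries in the reverse order of *Acan*, a comparison that was not planned. Part of that match follows from both values separating the groups. *Matn4* had another order, with control 2 lowest, and did not show the match. The macrophage and bone sums also separated the groups but did not give the reverse order of *Acan*. No marker was at 0 in all libraries, and *Mepe*, a bone marker, had at most 3 reads in each.

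**Figure D2:**
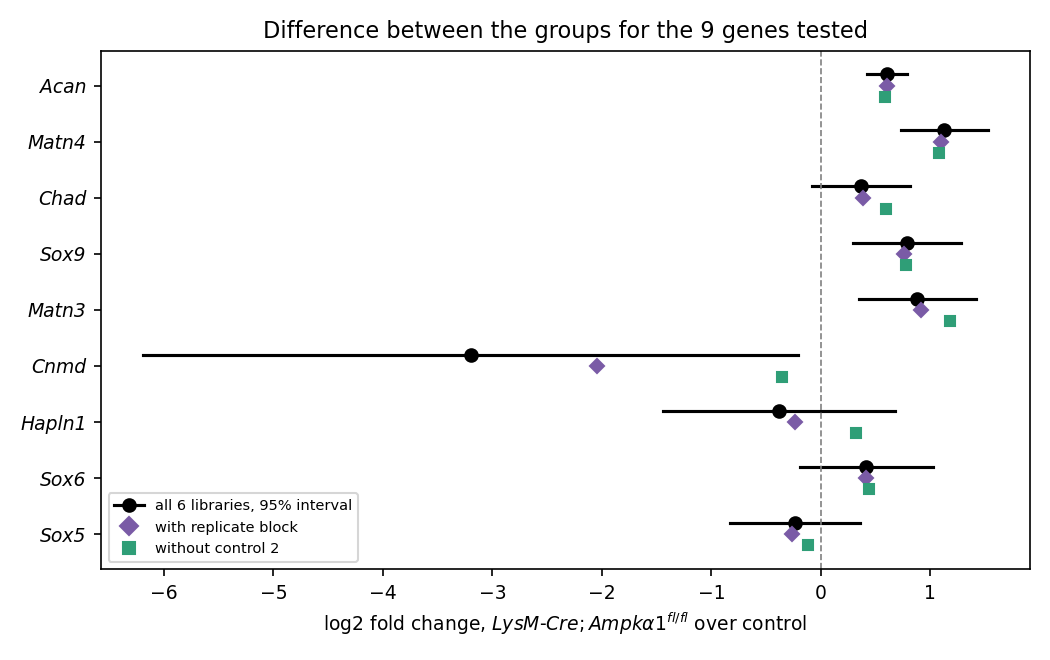
Log2 fold change of the LysM-Cre group over the control group for the 9 genes tested, with black circles and bars for the edgeR estimate and its 95% interval over all 6 libraries, purple diamonds for the fit with the replicate block, and green squares for the fit without control 2. Acan, Matn4, Sox9 and Matn3 lie above 0 in each of the 3 fits, Hapln1 crosses 0 without control 2, and Cnmd moves from -3.20 to -0.35.

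The deposited table gives estimated reads per RefSeq transcript, and in both genes the added reads lay mostly in 1 transcript. For *Acan*, NM_007424 had 11505, 9789 and 9441 estimated reads in the controls and 17473, 18543 and 17467 in the LysM-Cre mice, while NM_001361500 had 5432, 4651 and 4418 and then 5427, 5537 and 5099. The groups did not overlap for the first, with a transcript-level log2 fold change of 0.78 (SE 0.08), and overlapped for the second, with 0.13 (SE 0.08). The share of NM_007424 in the reads of *Acan* was 67.9%, 67.8% and 68.1% in the controls and 76.3%, 77.0% and 77.4% in the LysM-Cre mice (67.9 ± 0.166% and 76.9 ± 0.559%, SD, n = 3). The spread within each group was small against the difference between them.

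For *Matn4*, the share of NM_013592 was 52.3%, 49.8% and 44.7% in the controls and 70.7%, 60.1% and 65.0% in the LysM-Cre mice (48.9 ± 3.83% and 65.2 ± 5.30%, SD, n = 3), again without overlap. NM_001252563 made up 41.2 ± 4.07% and 25.5 ± 5.23% of the reads, and XM_011239331 9.82 ± 1.5% and 9.23 ± 0.132%. In GENCODE on GRCm38, NM_001252563 starts at position 164405160 of chromosome 2, directly after the first *Matn4* window shown above, and NM_013592 starts 546 bases further along the gene, at 164404614. Of 8081 genes with at least 2 transcripts and 100 reads in every library, the share of the leading transcript was higher in all LysM-Cre mice in 4.89% and lower in all of them in 5.1%. A two-sided exact permutation test gave p = 0.1 for the share of NM_007424 and of NM_013592, the smallest possible. In an edgeR test over 35819 transcripts, 1 transcript was called, and the adjusted p was 0.133 both for NM_007424 and for NM_013592 (log2 fold change 1.53, SE 0.17). Reads that transcripts share are divided by the authors' counting model, so these shares are estimates, and their error within a library was not given.

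**Figure D3:**
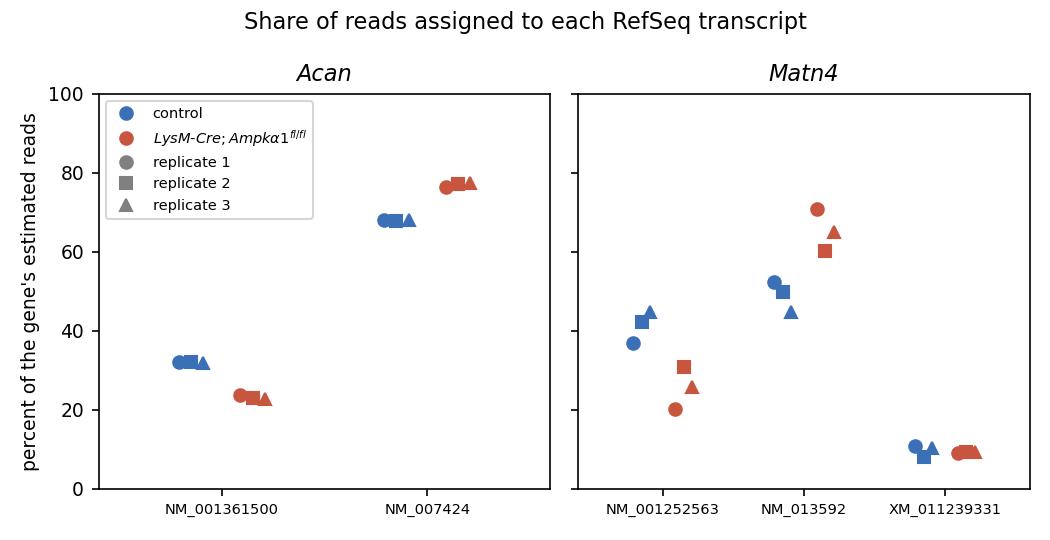
Percent of each gene's estimated reads assigned to each RefSeq transcript, for Acan (left) and Matn4 (right), with 1 point per mouse (blue, control; red, LysM-Cre). NM_007424 of Acan lies at 67.8% to 68.1% in the controls and 76.3% to 77.4% in the LysM-Cre mice, and NM_013592 of Matn4 lies at 44.7% to 52.3% and 60.1% to 70.7%.

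*Sox9* and *Matn3* did not pass the test, although the groups did not overlap. *Sox9*, the transcription factor of the cartilage lineage (NCBI Gene 20682, chr11:112782210-112787757), was at 26.0, 22.5 and 20.1 CPM in the controls and at 32.8, 52.9 and 32.7 CPM in the LysM-Cre mice. LysM-Cre 2 stood above the other 5 libraries, and the other two LysM-Cre mice were close to each other and above all controls. The log2 fold change was 0.79 (SE 0.21, 95% interval 0.29 to 1.28, edgeR adjusted p = 0.152). *Matn3*, which encodes matrilin-3 of growth plate cartilage (NCBI Gene 17182, chr12:8947929-8972028), had 166, 284 and 175 reads in the controls and 436, 330 and 402 in the LysM-Cre mice, or 8.78, 15.5 and 9.60 and then 22.7, 17.9 and 21.7 CPM. Control 2 was the highest control and lay close to LysM-Cre 2, the lowest of its group. The log2 fold change was 0.88 (SE 0.23, 95% interval 0.34 to 1.41, edgeR adjusted p = 0.142), and without control 2 it was 1.18 (adjusted p = 0.098).

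DESeq2 called both *Sox9* (adjusted p = 0.00572) and *Matn3* (adjusted p = 0.00635), so that it called 4 of the 10 genes, all higher, against 4.77% of all genes tested in either direction, 2.12% higher and 2.65% lower. The 4 genes whose groups did not overlap were *Acan*, *Matn4*, *Sox9* and *Matn3*, all higher, against 8.94% of all genes tested with every LysM-Cre mouse above every control. These 4 were also higher in the LysM-Cre mouse of each of the 3 same-numbered pairs, as were 19.1% of all genes tested. For *Sox9* the log2 differences within pairs 1, 2 and 3 were 0.33, 1.21 and 0.69, and for *Matn3* they were 1.32, 0.20 and 1.14.

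*Chad*, *Sox6* and *Sox5* did not pass the test, and their groups overlapped. *Chad* encodes chondroadherin, a leucine-rich repeat protein that binds collagen and integrin (chr11:94565047-94569127), and was at 21.4, 30.5 and 19.1 CPM in the controls and at 33.7, 26.1 and 31.8 CPM in the LysM-Cre mice. Control 2 lay among the LysM-Cre mice, the log2 fold change was 0.37 (SE 0.19, 95% interval -0.08 to 0.81, adjusted p = 0.435), and without control 2 it was 0.59 (adjusted p = 0.255). *Sox6* (chr7:115470872-116040776) was at 7.51, 10.6 and 12.7 CPM and then at 12.8, 10.4 and 17.9 CPM, with a log2 fold change of 0.42 (SE 0.26, 95% interval -0.19 to 1.02, adjusted p = 0.515). SOX6 also acts in skeletal muscle, and the summed skeletal muscle markers, at 202, 618 and 3483 CPM in the controls and 3840, 1138 and 10190 CPM in the LysM-Cre mice, had control 1 lowest and LysM-Cre 3 highest, as *Sox6* did. The part of muscle RNA in the *Sox6* values was not tested. *Sox5* (chr6:143828425-144782287) had only 70, 91 and 78 reads in the controls and 73, 86 and 47 in the LysM-Cre mice, with a log2 fold change of -0.24 (SE 0.25, 95% interval -0.83 to 0.36, adjusted p = 0.729). The intervals of these 3 genes include 0, and those of *Chad* and *Sox6* also include the estimate of *Acan*.

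*Cnmd*, *Matn1* and *Hapln1* were highest in control 2. *Cnmd* encodes chondromodulin, an inhibitor of vessel growth in cartilage (NCBI Gene 16840, chr14:79637682-79662194), and had 31, 443 and 15 reads in control 1, 2 and 3 and 15, 19 and 20 reads in LysM-Cre 1, 2 and 3. Control 2 was 14.8 times the next library in CPM, and the other two controls overlapped with the LysM-Cre mice. With all libraries the log2 fold change was -3.20 (SE 1.26, edgeR adjusted p = 0.308), and without control 2 it was -0.35 (SE 0.41, adjusted p = 0.827). DESeq2 gave *Cnmd* no adjusted p. *Matn1*, which encodes cartilage matrix protein, matrilin-1 (chr4:130944385-130955476), had 1, 71 and 0 reads in the controls and 0, 1 and 2 in the LysM-Cre mice. Outside control 2 it was therefore at or under 3 reads in every library, and it was the 1 gene of the 10 that did not reach the minimum count for the test (exact permutation test, two-sided, p = 0.9). *Hapln1*, which encodes link protein (chr13:89540529-89611832), had 196, 552 and 192 reads in the controls and 189, 230 and 312 in the LysM-Cre mice. Control 2 was 1.79 times the highest of the others, and the log2 fold change was -0.38 (SE 0.45, adjusted p = 0.758) with it and 0.32 (SE 0.23, adjusted p = 0.726) without it. *Sox5* was highest in control 2 as well, by a factor of 1.07 over the next library, and 18.3% of all genes tested were highest in that library.

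Other cartilage genes were also high in control 2. In all, 6 of the 18099 genes had at least 30 reads in that library and at least 5 times the CPM of every other library, namely *Matn1*, *Cnmd*, *Col2a1*, *Mia*, *Meltf* and *Itih5l-ps*, the last 2 named after their values were seen. By the same measure LysM-Cre 3 had 16 such genes, LysM-Cre 1 had 1 and the other 3 libraries had 0. *Col2a1*, the chain of type II collagen, had 5020, 38245 and 6642 reads in the controls and 4103, 4346 and 5225 in the LysM-Cre mice, so control 2 had 5.74 times the CPM of the next library. At a lower bar, at least 2-fold above every other library, control 2 had 2 of the 10 genes, 3 of 8 cartilage collagens (*Col2a1*, *Col9a1* and *Col9a3*) and 5 of 13 other cartilage matrix genes (*Prg4*, *Snorc*, *Scrg1*, *Mia* and *Clec3a*), as well as the regulators *Foxa2* and *Foxa3* at 4 and 2 reads. Among genes that passed the minimum count, these were 1 of 9, 3 of 7, 2 of 10 and 0 of 15, against 0.14% of all genes tested. *Acan* and *Matn4* were not among them, and in control 2 they were at 0.606 and 0.341 times the highest of the other libraries. None of the markers of tendon, muscle, bone, blood, macrophages, Schwann cells, adipocytes or endothelium met that bar in control 2. The source of these reads in control 2 was not tested.

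**Figure D4:**
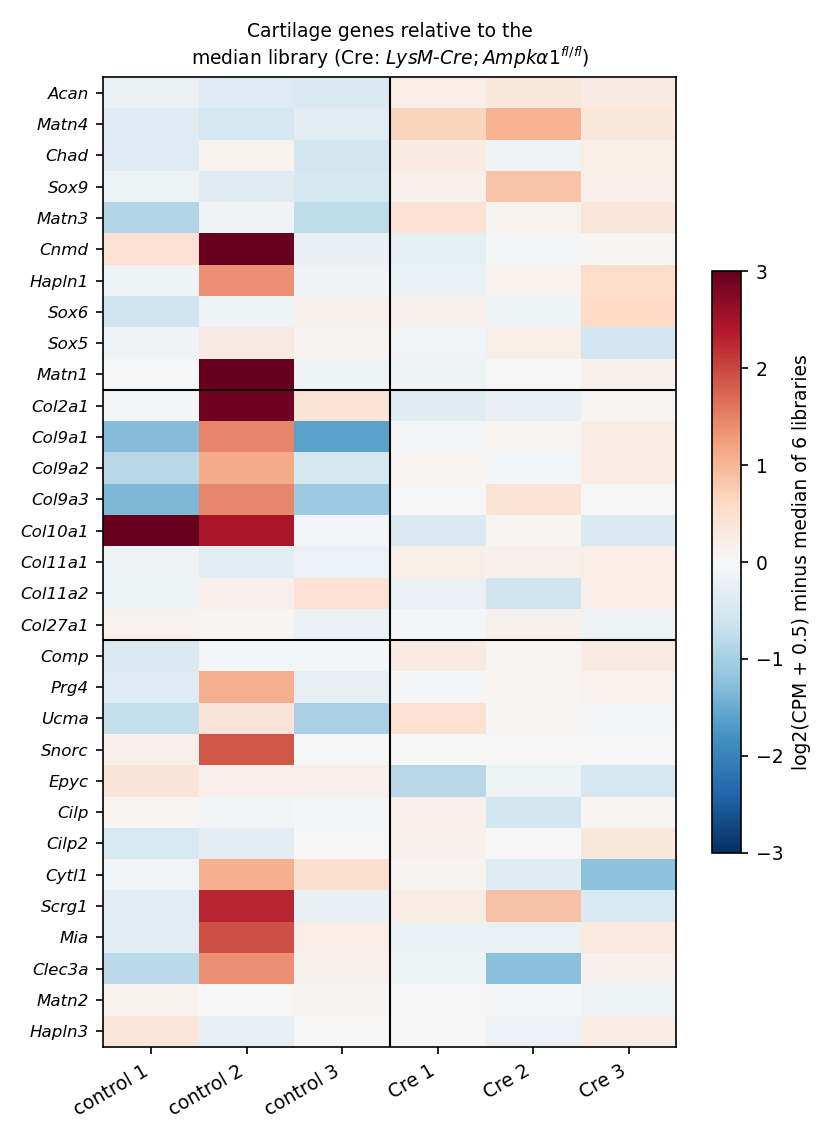
Log2(CPM + 0.5) of each cartilage gene in each library minus its median over the 6 libraries (red, above; blue, below), with the 10 genes at the top, 8 cartilage collagens in the middle and 13 other cartilage matrix genes at the bottom. Control 2 is darkest red for Cnmd, Matn1 and Col2a1, whereas Acan and Matn4 are above the median in the 3 LysM-Cre (Cre) libraries.

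edgeR called none of the cartilage collagens, the chains of the fibrils around aggrecan, and DESeq2 called *Col11a1*. Of 7 tested of 8, 1 was higher and 6 were lower (1 and 1 at an unadjusted p under 0.05). At that threshold, 852 of all 14261 genes tested were higher and 1219 were lower by edgeR. The median log2 fold change of the list was -0.11 against -0.002 over all genes tested. *Col11a1* was at 1611, 1417 and 1560 CPM in the controls and at 1994, 1934 and 2031 CPM in the LysM-Cre mice, without overlap (log2 fold change 0.38, SE 0.06, edgeR adjusted p = 0.0565, DESeq2 adjusted p = 4.73e-07). *Col2a1* had a log2 fold change of -1.89 (SE 0.76, adjusted p = 0.316) with control 2 and -0.37 (adjusted p = 0.565) without it. The 3 type IX collagen genes changed sign without control 2, and edgeR called none of them either way. *Col9a1* was at 11.5, 80.9 and 9.16 CPM in the controls and at 27.8, 29.9 and 33.7 CPM in the LysM-Cre mice, with a log2 fold change of -0.15 (adjusted p = 0.957) with control 2 and 1.56 (SE 0.14, adjusted p = 0.0592) without it. *Col9a2* went from -0.11 to 0.77 (adjusted p = 0.185) and *Col9a3* from -0.10 to 1.40 (adjusted p = 0.0985), so that without control 2 the list had 5 genes higher and a median of 0.33. *Col11a2*, the other chain of type XI collagen listed, had -0.33 (adjusted p = 0.554). *Col10a1*, the collagen of hypertrophic cartilage, had 115, 65 and 4 reads in the controls and 1, 5 and 1 in the LysM-Cre mice and did not reach the minimum count.

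Among 10 tested of 13 other cartilage matrix genes, 3 were higher and 7 lower, and the median was -0.10. edgeR called none of them (2 higher and 1 lower at an unadjusted p under 0.05), and DESeq2 called 3, *Comp* (adjusted p = 0.0359) and *Cilp2* (0.0244) higher and *Epyc* (0.0446) lower. By edgeR, the differences with the largest size were those of *Cytl1* (log2 fold change -1.39, adjusted p = 0.391), a secreted factor of cartilage at 2.73 CPM or less, *Clec3a* (-0.82, adjusted p = 0.58) and *Epyc*, a small leucine-rich proteoglycan (-0.78, SE 0.20, adjusted p = 0.147), followed by *Ucma* (0.51, adjusted p = 0.61) and *Cilp2* (0.43, adjusted p = 0.221). Without control 2, the log2 fold change was -0.94 for *Cytl1* (edgeR adjusted p = 0.734) and -0.05 for *Clec3a* (0.98). It was -0.82 for *Epyc* (0.35), 1.095 for *Ucma* (0.213) and 0.39 for *Cilp2* (0.519). With all libraries, *Epyc* was lower in every LysM-Cre mouse, at 3.96, 6.65 and 5.03 CPM against 9.95, 8.41 and 8.44 CPM in the controls. *Cilp2* was higher in every LysM-Cre mouse.

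Of the genes that build chondroitin sulfate, the chains that aggrecan carries, 20 of 21 were tested, 11 were higher and 9 lower, and the median was 0.02. Of the 66 genes tested in the 5 lists, DESeq2 called 9, against 4.77% of all genes tested. The 1 gene of the 66 that edgeR called was *Chpf*, a chondroitin-polymerizing factor. It had 4365, 4094 and 4313 reads in the controls and 5802, 5342 and 5376 in the LysM-Cre mice, without overlap, and its log2 fold change was 0.35 (SE 0.05, edgeR adjusted p = 0.0412). The call was lost with the replicate block (adjusted p = 0.0842) and without control 2 (adjusted p = 0.192), and of the 6 omissions of 1 library it was kept only without LysM-Cre 2. *Chsy1*, a chondroitin synthase, was at 114, 114 and 98.4 CPM and then at 134, 143 and 130 CPM (log2 fold change 0.32, edgeR adjusted p = 0.126, DESeq2 adjusted p = 0.0112). The others with the largest differences, *Xylt1* (0.36), *Chsy3* (0.24) and *B4galt7* (0.18), had edgeR adjusted p between 0.366 and 0.481.

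Of 15 tested of 19 chondrocyte regulators, 9 were higher and 6 lower (1 and 1 at an unadjusted p under 0.05), neither edgeR nor DESeq2 called any, and the median was 0.01. *Fgfr3*, a receptor that restrains growth plate chondrocytes, was lower in every LysM-Cre mouse (2.40, 3.57 and 2.81 against 3.86, 6.17 and 4.22 CPM, log2 fold change -0.70, SE 0.25, adjusted p = 0.261). *Runx3* had 0.62, *Trps1* 0.33, *Mef2c* 0.26 and *Runx2* 0.23 as log2 fold changes, with adjusted p between 0.223 and 0.66. Of 14 genes listed for the turnover of hyaluronan and aggrecan, a receptor and a protease inhibitor included, 4 were higher and 10 lower. The median of these genes was -0.12. edgeR called none of them (1 higher and 3 lower at an unadjusted p under 0.05), and DESeq2 called *Cemip* (adjusted p = 0.000471) higher and *Adamts5* (0.0119) and *Adamts9* (0.0102) lower. *Adamts5*, the aggrecan-cleaving protease ADAMTS5, was at 55.7, 54.8 and 55.3 CPM in the controls and at 31.1, 47.1 and 31.5 CPM in the LysM-Cre mice (log2 fold change -0.60, SE 0.16, edgeR adjusted p = 0.156). The protease genes *Adamts9* (-0.37, edgeR adjusted p = 0.0998) and *Adamts15* (-0.34, adjusted p = 0.238) were also lower without overlap. *Cemip*, which acts in hyaluronan breakdown, was at 57.4, 56.1 and 63.3 CPM and then at 78.1, 73.0 and 79.4 CPM (0.38, SE 0.07, edgeR adjusted p = 0.0597), and *Has3*, a hyaluronan synthase, had -1.02 (adjusted p = 0.451) at 2.12 CPM or less.

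Over the 5 lists, 28 of the 66 genes tested were higher and 38 lower, with a median of -0.06. edgeR made 1 call (higher), against 0.33% of all genes tested called higher. DESeq2 called 9, against 4.77% of all genes tested in either direction. At an unadjusted edgeR p under 0.05, 7 of the 66 were higher and 7 lower, against 852 and 1219 of all 14261 genes. Of the 66, 9 were higher and 7 were lower without overlap between the groups, while 8.94% and 11.4% of all genes were. Without control 2, 33 of the 66 were higher, and edgeR called none. The macrophage, erythroid and bone marker values given above moved with the same groups, and their part in these differences was not tested.

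**Figure D5:**
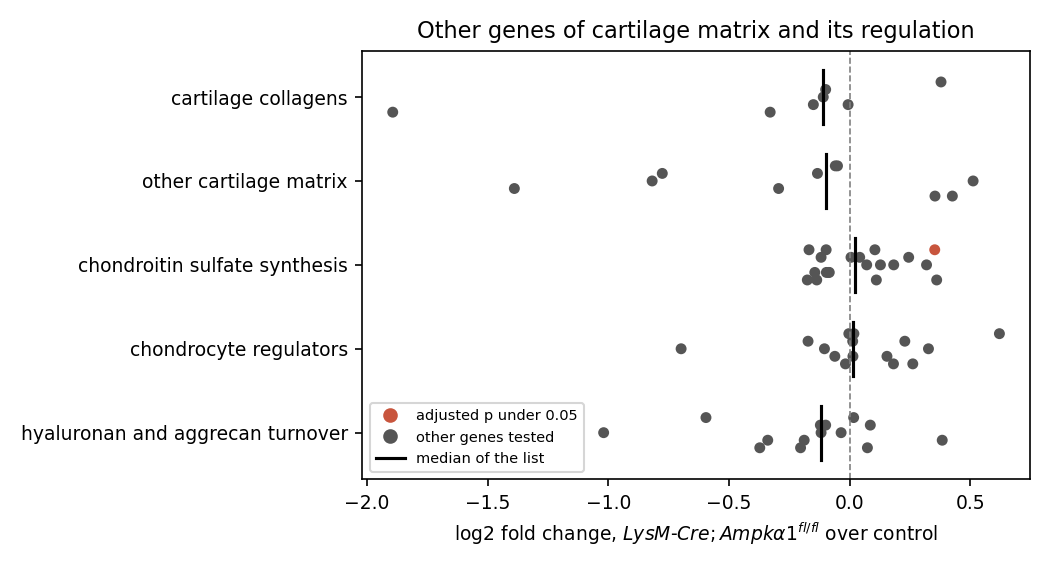
Log2 fold change of the LysM-Cre group over the control group for each gene tested in the 5 lists, with 1 point per gene and a black line at the median of the list. The medians lie between -0.12 and 0.02, and Chpf, the red point, is the gene with an edgeR adjusted p under 0.05.

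The genes whose profile over the 6 libraries was nearest to that of *Acan* were found by the root mean square difference of log2 CPM, each gene being centred on its own mean. *Efcab5* was nearest (0.051), followed by *Crispld2* (0.062), *Col8a2* (0.069), *Cdh2* (0.077) and *Gpc1* (0.082). *Efcab5* had 18 to 33 reads per library, whereas *Col8a2*, a type VIII collagen chain, had 6570 to 7797 reads in the controls and 10777 to 11710 in the LysM-Cre mice, and *Gpc1*, the heparan sulfate proteoglycan glypican-1, 6289 to 7571 and 10586 to 12152. Of the 8 other cartilage genes tested, *Sox9* was nearest to *Acan* (0.211), with 420 genes nearer, and *Cnmd* was farthest (1.852), with 14189 genes nearer. *Matn4*, the other gene called, was at 0.314, with 4685 genes nearer. For each of the 8, at least 420 genes were thus nearer to *Acan* by this measure, which counts the size of differences as well as their direction. *Matn4* had a larger difference in the same direction (log2 fold change 1.13 against 0.60 for *Acan*), which places it farther away. A gene with little difference between the groups can lie nearer.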

How the data were processed

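RNA was sequenced by the authors from tendon repair tissue of 3 control and 3 LysM-Cre; Ampkα1fl/fl mice, grouped by the sample labels, and the day and age are from the study's methods. For each of 65053 RefSeq transcripts, the authors' table holds an estimated count, which need not be whole and is not normalized, and a TPM value, which the authors adjusted for the length of the transcript and the library's total. The submitters' processing notes name GRCm38.p6. The aligner and counting tool are not given in the sources used here. Another 12 columns of values per sample (normalized counts and FPKM) and 8 columns of averages in that table were left out.

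Estimated counts were summed by NCBI Gene identifier and rounded, which gave 18099 genes, 99.72% of which were matched to a symbol. Groups were compared in R 4.3.3 with edgeR 4.0.16 (TMM, filterByExpr, quasi-likelihood F test) on the 14261 genes that passed the filter, with Benjamini-Hochberg adjustment over all of them and a threshold of 0.05. The study's methods name no test for sequencing counts. Standard errors are the log2 fold change divided by the square root of F, and intervals are unadjusted. CPM values use TMM library sizes. Values of 1 gene were also compared by an exact permutation test on log2(CPM + 0.5), and profiles by log2 CPM with a prior count of 2. Levels of different genes are compared only in TPM. The edgeR test was also tested on simulated counts.

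The main test compared the groups without pairing. Replicate numbers in the labels were taken as pairs only in the fit with the replicate block and in the differences within same-numbered pairs. The deviations of same-numbered libraries from their group means correlated at r = 0.184, 0.118 and 0.31 over 14261 genes. The highest correlation of differently numbered libraries was 0.501, and the labels do not say what a number stands for. Whether the mice were paired is therefore not known. Alternatives were DESeq2 1.42.0, limma 3.58.1 on log2(TPM + 0.5), other scalings and filters, the replicate block and leaving out each library. The limma counts of calls and the tests of single transcripts were chosen after seeing the data. Nothing says whether the mice were of separate litters, and p-values measure the spread between these 6 libraries. Whether reads were corrected for PCR copies is not stated in the sources used here. Floors and read totals therefore cover counting error only.

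The 10 genes and all gene lists were chosen with earlier results of these data known. The text names all 10 genes, up to 5 tested genes of each of the 5 lists by size of the log2 fold change, every gene called in them, *Prkaa1* and *Lyz2*, and the 5 genes nearest in profile to *Acan*. Other genes were named after their values were seen. Promoter windows are from RefSeq on GRCm38.p6. *Sox9* was not in that table.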

Additional observations from a re-analysis of the deposited data

How the results depend on the processing

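With the replicate block (paired by replicate number), 0 of the 10 cartilage genes, 0 of the 66 list genes and 47 of all genes were called, in place of 2, 1 and 128. DESeq2 called 4, 9 and 680, and limma on log2(TPM + 0.5), chosen after seeing the data, 0, 0 and 69. Upper-quartile scaling called 2 of the list genes. Leaving out 1 library at a time gave 0 to 2 cartilage genes, 0 to 2 list genes and 8 to 276 of all genes. The fewest of all genes were called without control 2 (8), and the most without LysM-Cre 2 (276). Each such fit has 5 libraries, and the cause of the change was not tested. The direction of *Hapln1* turned without control 2, and its log2 fold change ranged from -0.64 to 0.32 over the 6 omissions, in place of -0.38 with all libraries. None of these was called. Of 117 fold changes of the 9 genes under alternatives, 101 kept their direction and their side of the threshold. Among the 101 is *Cnmd* under DESeq2, which got no adjusted p and was taken as not called. A further 13 kept only the direction and lost the call, and 2 gained one. The 13 that lost it were those of *Acan* and *Matn4* under the block, limma and the omissions named above. Tested alone, no transcript of either gene was called, with log2 fold changes of 0.13 to 0.78 for *Acan* and 0.46 to 1.53 for *Matn4*. The groups hold 3 libraries each. *Sox5*, *Cnmd* and *Matn1* rest on few reads, and in the library with the fewest, counting error alone was 14.6% for *Sox5* and 25.8% for *Cnmd*.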
